A study of Homo sapiens with 36 samples.

Results

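Adenosine editing was compared between RNA recovered with an antibody to YTHDF1 (YTHDF1 RIP) and input RNA of HEK293T cells that expressed a YTHDF1-ADAR fusion. HEK293T is a human embryonic kidney line. Genes were included when the authors' deposited editing table of these cells gave a score in the YTHDF1 RIP, the YTHDF2 RIP, the YTHDF3 RIP and the input, which held for 7800 of 7829 genes in that table, and of 8387 genes in the editing tables of all lines. All groups used here carried YTHDF1-ADAR, induced with doxycycline at 1 µg/mL for 24 h: YTHDF1 RIP, YTHDF2 RIP and YTHDF3 RIP used antibodies to the endogenous proteins, and input was total RNA from a fraction of the lysate. Whether the antibody to YTHDF1 also held the YTHDF1-ADAR fusion was not tested here, so RNA held by the native protein and by the fusion cannot be told apart in the YTHDF1 RIP. Each group had 3 libraries. The promoter, the ADAR family member in the fusion, and whether the line was 1 clone are not given in the sources used here, and a line without a fusion is not analysed here.

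YTHDF1 is a cytoplasmic reader protein that binds N6-methyladenosine (m6A), the most common internal methyl mark of mRNA, through its YTH domain, and it has been linked to the translation and turnover of marked transcripts. ADAR enzymes turn adenosine into inosine, which sequencing reads as guanosine. When ADAR is tied to a reader, edited adenosines mark the RNAs that the fusion has met in the cell, the principle of TRIBE. RIP-TRIBE adds the antibody step, so that editing is read in the RNAs that were held by a reader at lysis and in the RNAs of the whole lysate.

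The editing table holds 1 value per gene and arm, pooled over replicates by the authors, so no difference in editing has a replicate error and none was tested here. The editing level is 100 times the deposited score divided by the gene's number of sites, a percent, and the difference is YTHDF1 RIP minus input in percentage points. The odds ratio sets the odds of an edited base in YTHDF1 RIP over those in input. It was had for the 7232 genes with both levels above 0, and a value of at least 2 or at most 1/2 is counted below. Read coverage at the sites is not in the table, so the depth behind a level is unknown, and how a position came to be listed as a site is not given. The base sequences of the sites are not used here.

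The 6 libraries set against each other for RNA held 24.2, 22.7 and 33.5 M counts in YTHDF1 RIP and 20.7, 30.3 and 29.9 M in input. YTHDF1, whose count includes the reader part of the fusion, lay at 3769, 3360 and 2446 CPM (counts scaled to a common library size, after TMM scaling) in YTHDF1 RIP and at 529, 721 and 652 CPM in input. NEFM, a neurofilament gene that HEK293T cells express, lay at 1429, 1612 and 1717 CPM in YTHDF1 RIP and at 1414, 935 and 1883 CPM in input, and the defining markers PTPRC (blood), COL1A2 (fibroblasts) and KRT5 (epithelium) had 0 CPM in all 6. In the YTHDF2-ADAR and YTHDF3-ADAR lines, which have their own site sets, the same antibody gave median levels of 0.505% in YTHDF1 RIP and 0.942% in input over 2199 genes, and 0.511% in YTHDF1 RIP and 1.11% in input over 2763 genes. Those YTHDF1 RIP libraries were shallower, with 12.5 to 16.3 M counts, and 41.9% and 42.3% of their genes were listed at 0 in the RIP, against 3.86% in YTHDF1-ADAR cells.

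Editing was higher in YTHDF1 RIP than in input for most genes. The median level was 3.71% in YTHDF1 RIP (interquartile range 1.90 to 6.17) and 2.50% in input (1.19 to 4.30), with a median difference of 1.01 percentage points (0.309 to 2.13). The level was higher in YTHDF1 RIP for 6433 genes, which is 82.5% of them, lower for 1296 and equal for 71. The median odds ratio was 1.43 (1.15 to 1.91). An odds ratio of at least 2 was seen for 1631 genes, 22.6% of those with one, and an odds ratio of at most 1/2 for 254, which is 3.51%. Most genes were thus higher by a modest step, and 16.6% were lower.

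Gene by gene, the level in YTHDF1 RIP followed the level in input. Across the 7800 genes, which share the same pooled libraries and are not independent replicates, Spearman's rank correlation between YTHDF1 RIP and input was 0.81 and Pearson's r 0.86. Within the classes of site number, the rank correlation was 0.45 for genes with 1 site, 0.77 with 2 to 5, 0.89 with 6 to 19 and 0.90 with 20 or more. A level of 0 was listed for 234 genes in YTHDF1 RIP only, for 267 in input only and for 67 in both. All genes with 6 or more sites had both levels above 0.

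The number of sites per gene ran from 1 to 617 with a median of 6, and the table held 127846 sites over the 7800 genes. Genes with 20 or more sites were 23.9% of the genes and carried 73.9% of the sites, whereas genes with 1 site were 18.2% of the genes and carried 1.11% of the sites. Levels were higher in genes with more sites in both arms. The median was 1.72% in YTHDF1 RIP and 1.08% in input for the 1419 genes with 1 site. It was 2.90% in YTHDF1 RIP and 1.73% in input for the 2257 genes with 2 to 5 sites. For the 2256 genes with 6 to 19 sites it was 4.32% in YTHDF1 RIP and 2.87% in input, and for the 1868 genes with 20 or more it was 4.46% in YTHDF1 RIP and 3.35% in input. The step between the last 2 classes was thus small in YTHDF1 RIP and larger in input.

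**Figure D1:**
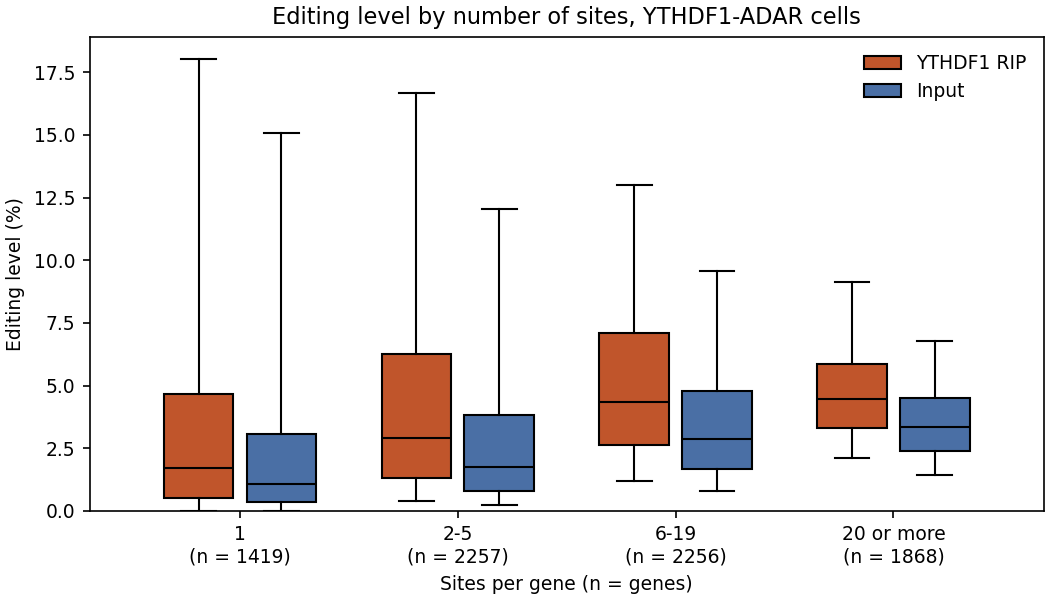
Editing level in percent for genes grouped by number of sites, with YTHDF1 RIP and input as paired boxes. Boxes span the interquartile range over genes, lines mark medians and whiskers the 5th and 95th percentiles. The YTHDF1 RIP median lies above the input median in each class, at 1.72, 2.90, 4.32 and 4.46% in YTHDF1 RIP and 1.08, 1.73, 2.87 and 3.35% in input, and genes with 1 site spread most relative to their median.

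How often a gene was higher in YTHDF1 RIP depended on its site number. The share was 59.0% of genes with 1 site, 76.4% with 2 to 5, 90.7% with 6 to 19 and 97.8% with 20 or more. In the last class 1826 genes were higher and 42 lower. The median difference was 0.472, 0.958, 1.25 and 1.03 percentage points and the median odds ratio 1.53, 1.58, 1.47 and 1.33 in the same order, so neither measure of size changed steadily with site number. For the odds ratio, the range from the 5th to the 95th percentile narrowed: 0.300 to 7.75 with 1 site, 0.476 to 5.61 with 2 to 5, 0.907 to 2.93 with 6 to 19 and 1.06 to 2.04 with 20 or more. Both levels were above 0, as an odds ratio needs, for 944 of 1419 genes with 1 site and 2164 of 2257 with 2 to 5. The next shares are over genes with an odds ratio, not over all genes of a class. A value of at least 2 was found for 371 genes with 1 site (39.3%) and 742 with 2 to 5 (34.3%), against 22.6% over all classes. It was found for 18.4% with 6 to 19 and 5.57% with 20 or more. An odds ratio of at most 1/2 was found for 122, 120, 12 and 0 genes in the 4 classes. Most large changes in either direction thus came from genes with few sites, where each level averages over few positions.

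**Figure D2:**
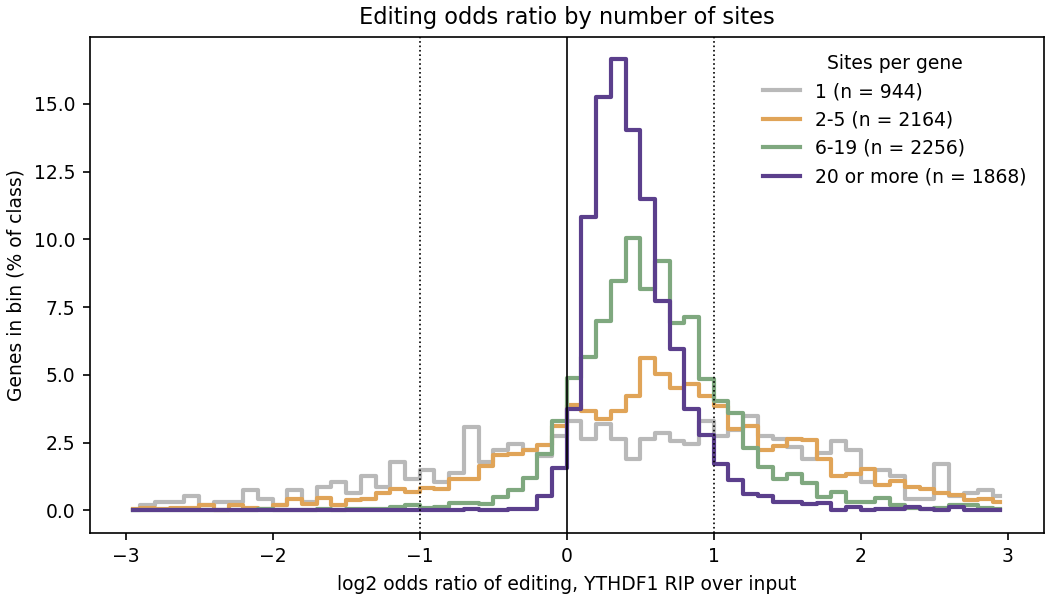
Distribution over genes of the log2 odds ratio of editing, YTHDF1 RIP over input, in percent of each class of site number. The solid line marks equal odds and the dotted lines an odds ratio of 2 and 1/2. The curve for genes with 20 or more sites is narrow and lies almost wholly right of equal odds, with 1826 of 1868 genes higher in YTHDF1 RIP, while the curve for genes with 1 site reaches far to both sides.

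In the authors' deposited table, 621 genes had an adjusted p under 0.05 with a higher level in YTHDF1 RIP, 7.96% of all, and 15 had one with a lower level, 0.192%. The test behind that p is not stated. By class, the higher genes were 14 with 1 site, 124 with 2 to 5, 291 with 6 to 19 and 192 with 20 or more. Over the 621 genes the median level was 5.32% in YTHDF1 RIP and 2.35% in input. Their input level was thus below the median of 2.50% over all genes. They were picked for a level higher in YTHDF1 RIP than in input, so a low input level is in part built in.

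The 5 genes with most sites were long or densely edited transcripts with a small step. EPPK1, which encodes epiplakin, a cytoskeletal linker of the plakin family, had 617 sites and was edited at 6.80% in YTHDF1 RIP and 6.28% in input. It lies on GRCh38 chromosome 8 from 143857324 to 143878467. Its neighbour PLEC, which encodes plectin of the same family, had 411 sites at 4.33% in YTHDF1 RIP and 3.82% in input. TBC1D16, a Rab GTPase-activating protein, had 336 sites at 3.81% in YTHDF1 RIP and 3.39% in input, and FAT1, a giant protocadherin, had 332 at 4.58% in YTHDF1 RIP and 4.10% in input. In these 4 genes the odds ratio was 1.09 to 1.14. PUSL1, annotated as a pseudouridine synthase-like gene, stood apart, with 312 sites at 4.32% in YTHDF1 RIP and 2.43% in input and an odds ratio of 1.81. Its exons overlap those of ACAP3 and INTS11, so the gene to which its reads belong is uncertain.

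The RNA of EPPK1 lay at 2453, 2964 and 876 CPM in YTHDF1 RIP and at 485, 275 and 437 CPM in input, and that of FAT1 at 1150, 1017 and 999 CPM in YTHDF1 RIP and at 164, 201 and 189 CPM in input. For both, no YTHDF1 RIP library overlapped an input library. The third YTHDF1 RIP library was much lower than the other two for EPPK1 and not for FAT1. The log2 fold changes were 2.39 ± 0.40 for EPPK1 (SE, edgeR quasi-likelihood test, adjusted p 1.00e-05) and 2.52 ± 0.17 for FAT1 (adjusted p 6.89e-14). After TMM scaling, RNA of these transcripts was thus several-fold higher in YTHDF1 RIP beside an editing level that hardly differed. For EPPK1 the log2 change was 1.23 when libraries were scaled to mitochondrial mRNAs.

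Among genes with 20 or more sites, the 5 largest differences belonged to ARHGEF4, ZYG11A, COX19, UBE3B and METAP1D. ARHGEF4, a guanine nucleotide exchange factor for small GTPases, had 49 sites on chromosome 2 from 130836914 to 131047263 and was edited at 12.02% in YTHDF1 RIP and 4.42% in input. Its odds ratio was 2.95, with an adjusted p of 8.35e-09 in the authors' deposited table. ZYG11A, a substrate receptor of a cullin ubiquitin ligase, had 20 sites at 9.08% in YTHDF1 RIP and 3.08% in input. COX19, a chaperone of cytochrome c oxidase assembly whose exons overlap ADAP1, had 21 at 12.8% in YTHDF1 RIP and 7.13% in input. UBE3B, a ubiquitin ligase, had 26 at 14.6% in YTHDF1 RIP and 9.12% in input, and METAP1D, a mitochondrial methionine aminopeptidase, had 24 at 10.6% in YTHDF1 RIP and 5.19% in input. Their RNA was higher in YTHDF1 RIP too, by log2 0.44 (ZYG11A) to 1.58 (ARHGEF4), all called by edgeR. When libraries were scaled to mitochondrial mRNAs, the sign turned for ZYG11A, COX19, UBE3B and METAP1D, and ARHGEF4 fell to 0.31. ZYG11A was not called without the expression filter.

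Genes with 6 to 19 sites held larger single differences. RALGPS2, a guanine nucleotide exchange factor for Ral, had 12 sites at 31.8% in YTHDF1 RIP and 11.2% in input, while its RNA was at 84.8, 84.7 and 60.1 CPM in YTHDF1 RIP and 80.3, 77.1 and 105 CPM in input and was not called (adjusted p 0.388). In the other RIPs RALGPS2 was edited at 11.1% (YTHDF2 RIP) and 8.81% (YTHDF3 RIP), so the high value belonged to the YTHDF1 RIP alone of the 4 arms. BORCS8, part of the BORC complex that moves lysosomes, had 9 sites at 23.9% in YTHDF1 RIP and 9.38% in input. FLRT1, a fibronectin leucine-rich transmembrane protein, had 15 at 15.0% in YTHDF1 RIP and 3.21% in input. CAMTA1, a calmodulin-binding transcription activator, had 8 at 16.9% in YTHDF1 RIP and 5.34% in input, and LHX4, a LIM homeobox factor, had 9 at 16.6% in YTHDF1 RIP and 7.23% in input. BORCS8 shares exons with MEF2B and others, and LHX4 with ACBD6. The authors' deposited table gave RALGPS2 an adjusted p of 0.00387 and FLRT1 one of 0.182, so between these genes the larger odds ratio did not go with the smaller p. The largest falls in this class were smaller: TMEM242 was at 6.51% in YTHDF1 RIP and 9.36% in input, NCBP2, of the nuclear cap-binding complex, at 5.22% in YTHDF1 RIP and 8.04% in input, and CHRFAM7A, SLC36A1 and NRP2 had differences of -2.66 to -2.29 points.

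With 1 to 5 sites, large differences occurred in both directions. C3orf62, with 1 site, was at 54.2% in YTHDF1 RIP and 9.72% in input, and GPR155, a lysosomal membrane protein, at 37.5% in YTHDF1 RIP and 9.38% in input. LIPT1, a lipoyl transferase of mitochondria, was at 25.4% in YTHDF1 RIP and listed at 0 in input. Exons of C3orf62 overlap USP4, and those of LIPT1 overlap MITD1 and TSGA10. On the other side, EMILIN1, an elastin-associated glycoprotein, was at 7.75% in YTHDF1 RIP and 27.3% in input, LZTS1, a leucine zipper protein, at 24.3% in YTHDF1 RIP and 40.0% in input, and PKD2, a cation channel of primary cilia, at 15.6% in YTHDF1 RIP and 31.2% in input. Among genes with 2 to 5 sites, APOL2, GPRC5C and TSHZ2 were 18.5 to 21.9 points higher in YTHDF1 RIP, and ZNF792, OLFM1 and H4C4 had differences of -17.8 to -14.7 points. H4C4 is a histone H4 gene with near-identical copies, so its value is uncertain.

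Of the 42 genes with 20 or more sites that were lower in YTHDF1 RIP, most differed by little, with a median difference of -0.13 points. NCAPH2, a condensin II subunit, was lower by the widest margin. It had 28 sites, at 1.51% in YTHDF1 RIP and 2.35% in input, and an adjusted p of 0.000613 in the authors' deposited table. In the YTHDF2 RIP and YTHDF3 RIP it lay at 2.88 and 4.55%, above input. NCAPH2 RNA was at 173, 162 and 208 CPM in YTHDF1 RIP and at 106, 106 and 94.4 CPM in input, called higher (log2 0.83 ± 0.19, edgeR adjusted p 0.000395; -0.30 under mitochondrial scaling), and its exons overlap those of SCO2. HECTD4, a HECT-domain ubiquitin ligase family gene, was at 4.37% in YTHDF1 RIP and 5.20% in input, ANKRD17 at 2.43% in YTHDF1 RIP and 3.10% in input, RTN4R, the Nogo receptor, at 10.0% in YTHDF1 RIP and 10.7% in input, and TP73, a relative of p53, at 6.79% in YTHDF1 RIP and 7.41% in input.

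The 12 smallest adjusted p among higher genes in the authors' deposited table, a set chosen after its values were seen, belonged to genes with odds ratios of 1.91 to 12.2. Their RNA was called lower in YTHDF1 RIP for 8, higher for 1, P2RY11, and not called for 3. Over all 621 higher genes of that table, RNA was called higher for 268 (43.2%) and lower for 159 (25.6%), close to the 43.6% and 29.1% of all edited genes tested, so the 12 do not stand for the 621. ZNF621, a zinc finger gene with 46 sites on chromosome 3 from 40524878 to 40574685, was at 6.502% in YTHDF1 RIP and 2.36% in input (adjusted p 5.03e-58 in the authors' deposited table). Its RNA was at 73.0, 68.0 and 69.2 CPM in YTHDF1 RIP and 64.1, 83.7 and 74.96 CPM in input, overlapping groups that were not called (log2 -0.08 ± 0.13, edgeR adjusted p 0.632).

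ARF1, the GTPase that recruits coat proteins at the Golgi, had 14 sites at 6.53% in YTHDF1 RIP and 1.31% in input. ARF1 RNA lay at 134, 122 and 172 CPM in YTHDF1 RIP and 311, 471 and 463 CPM in input, with no overlap (log2 -1.54 ± 0.20, edgeR adjusted p 3.92e-08). RPL28, a protein of the large ribosomal subunit, had 33 sites at 5.32% in YTHDF1 RIP and 1.03% in input, and RNA at 101.7, 98.5 and 114 CPM in YTHDF1 RIP and 179, 294 and 323 CPM in input (log2 -1.34 ± 0.23, edgeR adjusted p 6.24e-06). In both genes the RIP library values lay wholly below the input values, while the editing odds were more than 5 times higher (5.26 for ARF1, 5.42 for RPL28).

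NDUFAF3, an assembly factor of respiratory complex I, had 52 sites at 5.76% in YTHDF1 RIP and 1.22% in input, and RNA at 19.6, 18.4 and 29.2 CPM in YTHDF1 RIP and 42.3, 72.7 and 67.1 CPM in input (log2 -1.43 ± 0.24, edgeR adjusted p 4.21e-06). BOP1, a ribosome biogenesis factor, LSM8, part of the spliceosomal LSM ring, MFSD11, a membrane protein, and RMND5B, of a ubiquitin ligase complex, had 2 to 10 sites, odds ratios of 6.34, 12.2, 8.83 and 9.34, and RNA called lower. RAD9A, of the DNA damage checkpoint clamp, and RECQL4, a DNA helicase, had odds ratios of 4.54 and 3.47 and no RNA call, PANK3, a pantothenate kinase, an odds ratio of 1.91 and RNA called lower (log2 -0.42, edgeR adjusted p 0.0149), and P2RY11 an odds ratio of 3.70 and RNA called higher (log2 0.45, edgeR adjusted p 0.0312), though at -0.72 under mitochondrial scaling and not called without the second input library. PANK3 was not called when libraries were scaled by DESeq2 size factors or total counts, by DESeq2 itself, without the expression filter, with only the 6 libraries, or without YTHDF1 RIP replicate 1 or 2 or input replicate 2 or 3. Exons of RAD9A overlap PPP1CA, those of NDUFAF3 DALRD3, those of MFSD11 SRSF2, those of RMND5B NHP2 and those of P2RY11 EIF3G and PPAN, and the counts ignore strand, so the transcript behind these values is uncertain. ARF1 and RPL28 overlap only microRNA genes.

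**Figure D3:**
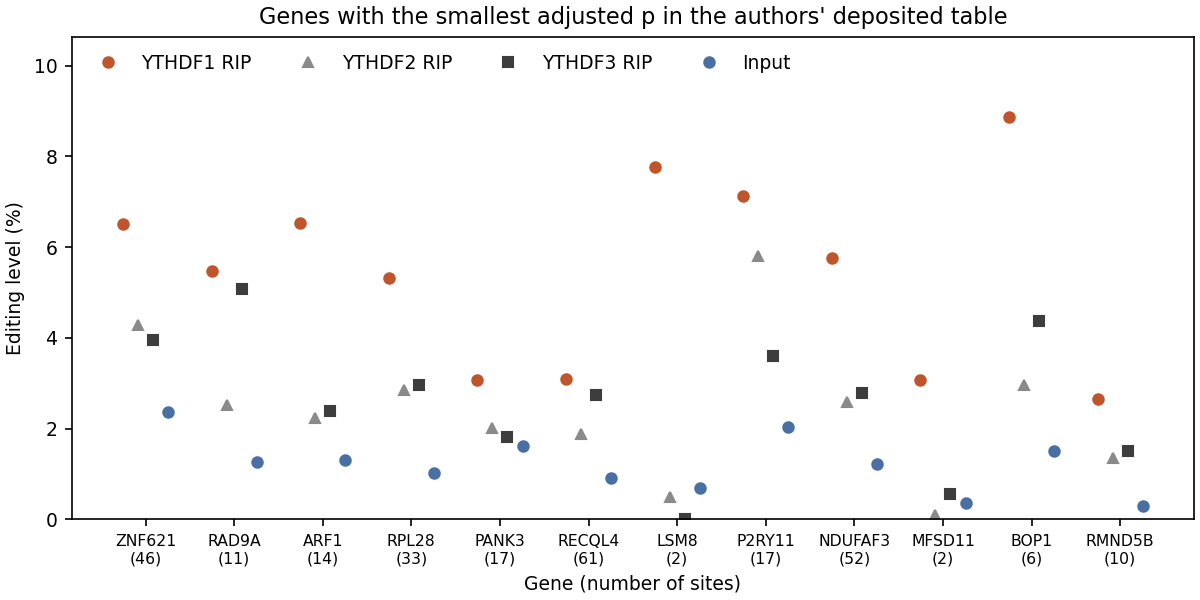
Editing level in percent in YTHDF1 RIP, YTHDF2 RIP, YTHDF3 RIP and input for the 12 genes of smallest adjusted p, higher in YTHDF1 RIP, in the authors' deposited table, with the number of sites under each name. Each point is 1 pooled value with no replicate error. The YTHDF1 RIP point is the highest of the 4 in all 12 genes, and the YTHDF2 RIP and YTHDF3 RIP points mostly lie between it and input, as for RPL28 at 5.32, 2.85, 2.96 and 1.03%.

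On the lower side, where genes were likewise chosen after their values were seen, the smallest adjusted p in the authors' deposited table belonged to GGCX, the vitamin K-dependent carboxylase, at 0.400% in YTHDF1 RIP and 1.37% in input over 5 sites, followed by NCAPH2. LRRC47 was at 0.717% in YTHDF1 RIP and 14.5% in input over 3 sites, and CENPT, a centromere protein, at 0.680% in YTHDF1 RIP and 1.44% in input over 16. LRRC47 lay at 0.573% and 0.731% in the YTHDF2 RIP and YTHDF3 RIP, so input was the arm that stood apart. Exons of GGCX overlap MAT2A, and those of CENPT overlap NUTF2, THAP11 and TSNAXIP1.

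YTHDF1, its relatives YTHDF2 and YTHDF3, ADAR and ADARB1 were edited above the medians over all genes, 3.71% in YTHDF1 RIP and 2.50% in input. YTHDF1 itself had 43 sites at 12.1% in YTHDF1 RIP and 11.1% in input, and ADARB1, the gene of ADAR2, had 38 sites at 6.70% in YTHDF1 RIP and 6.65% in input. ADAR, which encodes ADAR1, had 35 sites at 5.43% in YTHDF1 RIP and 4.95% in input. YTHDF3 with 12 sites and YTHDF2 with 5 were at 4.28% and 6.03% in YTHDF1 RIP and at 3.36% and 4.37% in input. All 5 were higher in YTHDF1 RIP and none reached an odds ratio of 2. ADARB1 RNA lay at 3113, 2849 and 2386 CPM in YTHDF1 RIP and 474, 546 and 542 CPM in input, with no overlap (log2 2.42 ± 0.20, edgeR adjusted p 3.15e-12), so RNA with ADARB1 sequence was recovered with YTHDF1 at nearly the same editing level. YTHDF and ADAR genes have close relatives, and counts that map to the fusion cannot be told from those of the native genes.

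Among genes that write, erase or read m6A, 18 of 20 were higher in YTHDF1 RIP and 2 lower. They had 562 sites, and the median level was 4.21% in YTHDF1 RIP and 2.10% in input. The median of their differences was 0.958 points, close to that over all genes. An odds ratio of at least 2 was seen for 5 of 20, against 22.6% of all genes with an odds ratio. RBM15B and RBM15, adaptors of the m6A methyltransferase, had most sites, 205 and 91. RBM15B was at 5.65% in YTHDF1 RIP and 4.83% in input, and RBM15 at 2.84% in YTHDF1 RIP and 1.75% in input. METTL3, the catalytic subunit, was at 1.71% in YTHDF1 RIP and 0.577% in input over 5 sites, and its partner METTL14 at 1.86% in YTHDF1 RIP and 1.18% in input over 5. RBM15B exons overlap DCAF1 and METTL3 exons overlap TOX4.

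Transcripts described as m6A-modified had the highest input median among lists with 10 or more members and a smaller odds ratio than most genes, 1.27 in the median against 1.43 over all genes. All 21 were higher in YTHDF1 RIP, with a median of 4.58% in YTHDF1 RIP and 4.06% in input and none at an odds ratio of 2, and 15 of them had 20 or more sites. SON, a large splicing cofactor, had 156 sites at 9.83% in YTHDF1 RIP and 7.92% in input. SON RNA lay at 1901, 1860 and 2313 CPM in YTHDF1 RIP and 568, 666 and 543 CPM in input, with no overlap (log2 1.77 ± 0.21, edgeR adjusted p 6.02e-09). The log2 change was 0.69 under mitochondrial scaling, and SON exons overlap DONSON. SOX4, a developmental transcription factor, was at 4.37% in YTHDF1 RIP and 3.40% in input over 99 sites, CREBBP, a histone acetyltransferase, at 5.36% in YTHDF1 RIP and 4.84% in input over 71, and MYC at 3.90% in YTHDF1 RIP and 2.98% in input over 19. Of the low-m6A control mRNAs only 2 were members, with 3 sites between them. Both were higher in YTHDF1 RIP at an odds ratio of at least 2, with a median of 3.32% in YTHDF1 RIP and 1.26% in input.

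Known targets of native ADAR enzymes had a median of 2.56% in YTHDF1 RIP and 1.49% in input, with 18 of 22 higher and 3 lower. BLCAP, which is recoded by ADAR enzymes in human tissues, was at 11.8% in YTHDF1 RIP and 10.1% in input over 20 sites, CDK13, a transcription kinase, at 3.64% in YTHDF1 RIP and 2.71% in input over 97, and FLNA, filamin A, at 3.16% in YTHDF1 RIP and 2.88% in input over 22. No arm came from cells without the fusion, so editing by native enzymes and by the fusion cannot be told apart.

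Among lists with 10 or more members, transcription factors had the highest median levels in YTHDF1 RIP. The 268 ZNF zinc finger genes had a median of 5.27% in YTHDF1 RIP and 3.43% in input. Their median difference was 1.63 points, against 1.01 over all genes, with 245 higher and 23 lower. An odds ratio of at least 2 was found for 60 of the 254 with one, against 22.6% of all genes with one. ZNF276, with 249 sites, was at 3.38% in YTHDF1 RIP and 1.72% in input, but shares exons with FANCA, and ZNF629, with 188, was at 3.75% in YTHDF1 RIP and 3.12% in input. The 86 SOX, KLF and homeobox factors were at 5.53% in YTHDF1 RIP and 3.59% in input, with 84 higher and 2 lower, among them FOXK1, a forkhead factor that the list's symbol pattern also took in, with 287 sites at 3.93% in YTHDF1 RIP and 3.44% in input, and KLF13 with 115 at 6.06% in YTHDF1 RIP and 5.47% in input. The 14 immediate-early genes were at 4.33% in YTHDF1 RIP and 2.697% in input, with 13 higher. IER2 had 38 sites at 2.53% in YTHDF1 RIP and 1.29% in input, and JUND 35 at 4.34% in YTHDF1 RIP and 3.71% in input.

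In YTHDF1 RIP, chromatin regulators lay at lower median levels than the transcription factors, and their lists differed in how many genes were higher. The 43 KMT2, SET and KDM histone methylation enzymes were at 3.32% in YTHDF1 RIP and 2.62% in input, with 41 higher. KMT2D and KMT2C, histone H3 methyltransferases, had 306 and 120 sites, at 3.32% and 3.28% in YTHDF1 RIP and at 2.71% and 2.29% in input. The 24 CREBBP, EP300 and nuclear receptor coregulators were at 3.97% in YTHDF1 RIP and 3.37% in input, with 23 higher. Among 22 SWI/SNF and CHD remodellers, at 2.23% in YTHDF1 RIP and 1.45% in input, 15 were higher and 7 lower. The 27 genes of Wnt receptors and the beta-catenin pathway were at 3.72% in YTHDF1 RIP and 2.63% in input with 25 higher, including FZD1, a Frizzled receptor with 72 sites at 5.91% in YTHDF1 RIP and 5.77% in input. The 12 BCL2 family genes, regulators of apoptosis, were at 3.37% in YTHDF1 RIP and 3.25% in input, with 9 higher and a median difference of 0.971 points.

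Genes of ribosomes and of respiration had few sites, levels below the general median and larger odds ratios. Of the cytosolic ribosomal protein genes 26 were members, with 151 sites, a median of 3.23% in YTHDF1 RIP and 2.40% in input, and 19 higher and 7 lower. An odds ratio of at least 2 was found for 11 of the 23 with one, against 22.6% of all genes with one. RPL7L1, a relative rather than a ribosomal protein, was taken in by its symbol and had most sites, 37, at 2.84% in YTHDF1 RIP and 2.56% in input, followed by RPL28. The 24 nuclear-encoded oxidative phosphorylation genes had 78 sites, a median of 2.14% in YTHDF1 RIP and 1.11% in input, 20 higher and 4 lower, and 13 of 22 at an odds ratio of at least 2. Within them, UQCR11, of respiratory complex III, had 26 sites at 8.95% in YTHDF1 RIP and 6.12% in input. NDUFS7, of complex I, had 9 at 7.12% in YTHDF1 RIP and 2.01% in input. The median site number was 2 for the cytosolic ribosomal list and 1.5 for the oxidative phosphorylation list. An odds ratio of at least 2 was also common among all genes with few sites, at 39.3% with 1 and 34.3% with 2 to 5. The part of site number in these shares was not tested. Mitochondrial ribosomal proteins (44 genes) were at 2.62% in YTHDF1 RIP and 1.76% in input, with 35 higher and 9 lower. Mitochondrially encoded mRNAs had no member, nor had snoRNA hosts or small structured RNAs, and the reason was not tested. All 7788 members with an ID were listed as protein coding, so the absence of noncoding RNAs cannot be read as a lack of editing.

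Among lists with 10 or more members, levels in YTHDF1 RIP were lowest for genes of the cell cycle, the secretory pathway, histones, the proteasome and translation initiation. G2/M genes (18) were at 1.49% in YTHDF1 RIP and 0.925% in input, including MKI67, the proliferation marker, with 112 sites at 2.11% in YTHDF1 RIP and 1.63% in input, and BIRC5, survivin, with 22 at 5.22% in YTHDF1 RIP and 2.56% in input. S phase genes (19) were at 1.66% in YTHDF1 RIP and 1.55% in input. Secretory pathway genes (38) were at 1.89% in YTHDF1 RIP and 1.23% in input. Proteasome subunits (15) were at 1.57% in YTHDF1 RIP and 1.30% in input. Translation initiation factors (33), a list that also took in the kinase gene EIF2AK4, were at 1.86% in YTHDF1 RIP and 1.34% in input. Replication-dependent histones (26), whose mRNAs lack a poly(A) tail, were at 1.38% in YTHDF1 RIP and 1.26% in input. Their 17 higher and 9 lower genes were a smaller share than the 82.5% over all genes.

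Genes of mRNA decay and granules lay below the general median in both arms. The 23 CCR4-NOT, decapping and P-body genes were at 2.49% in YTHDF1 RIP and 2.14% in input, with 17 higher and 5 lower. DDX6, a P-body helicase, had 48 sites at 2.49% in YTHDF1 RIP and 2.03% in input. The 12 Argonaute and TNRC6 genes were at 2.65% in YTHDF1 RIP and 1.81% in input, and the 16 stress granule genes at 2.60% in YTHDF1 RIP and 1.93% in input. The 63 SR, SON and hnRNP splicing genes were at 2.94% in YTHDF1 RIP and 2.54% in input, with 45 higher and 17 lower. That list is broad and also took in RBM15B, named above among the m6A genes. Heat shock chaperones (40) were at 3.06% in YTHDF1 RIP and 2.07% in input, and SLC solute carriers (130) at 3.48% in YTHDF1 RIP and 2.45% in input. The 7 glycolysis genes split into 3 higher, 3 lower and 1 equal, although PFKL, liver-type phosphofructokinase, had 23 sites at 5.51% in YTHDF1 RIP and 1.31% in input. The 4 interferon-stimulated genes split into 2 and 2. The lists also differ in site number, and its part in their medians was not tested.

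**Figure D4:**
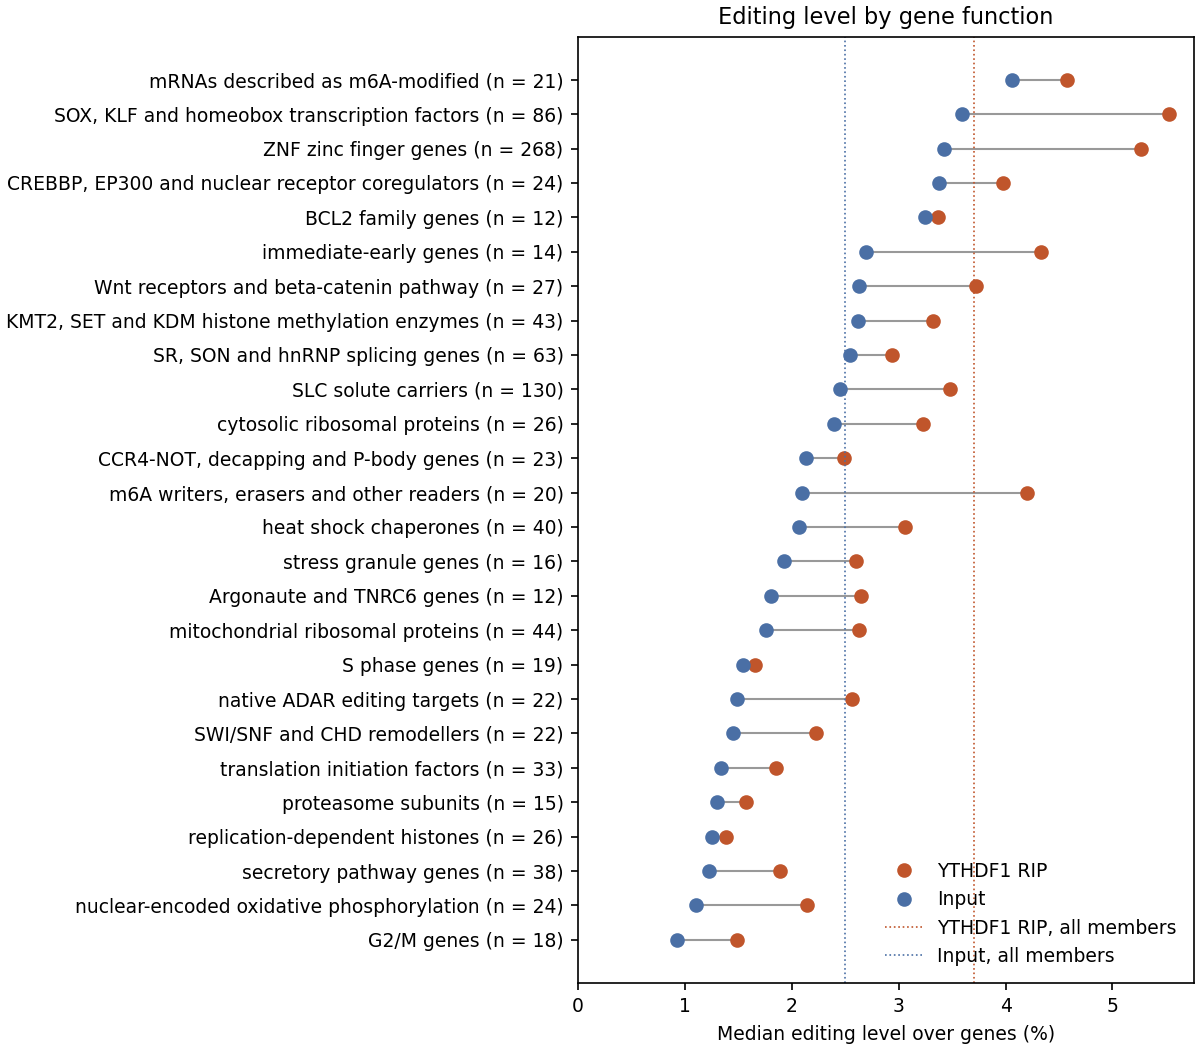
Median editing level in percent in YTHDF1 RIP and in input for each gene list with 10 or more members, ordered by the input median. Each point is a median over n genes with no replicate error, and dotted lines mark the medians over all 7800 genes, 3.71% in YTHDF1 RIP and 2.50% in input. The YTHDF1 RIP point lies right of the input point for each list shown, by a wide gap for the transcription factor lists. The gap between 2 medians is not the median of the differences, which was 0.958 points for m6A writers, erasers and other readers and 0.971 for the BCL2 family.

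The YTHDF2 RIP and YTHDF3 RIP of the same cells are set against the same input, so their differences are not independent of those above. Over the same 7800 genes the median level was 3.39% in YTHDF2 RIP and 3.18% in YTHDF3 RIP, beside 3.71% in YTHDF1 RIP and 2.50% in input. YTHDF1 RIP was the highest of the 3 RIPs for 46.3% of genes. By class this share was 39.5% with 1 site, 50.5% with 2 to 5, 53.4% with 6 to 19 and 38.0% with 20 or more. For genes with 20 or more sites the medians were 4.46% in YTHDF1 RIP, 4.47% in YTHDF2 RIP and 4.15% in YTHDF3 RIP, so YTHDF1 RIP and YTHDF2 RIP were nearly tied. In oxidative phosphorylation genes the medians were 2.14% in YTHDF1 RIP, 0.802% in YTHDF2 RIP and 1.37% in YTHDF3 RIP. In m6A writers, erasers and other readers they were 4.21% in YTHDF1 RIP, 2.87% in YTHDF2 RIP and 3.36% in YTHDF3 RIP. Gene by gene, YTHDF1 RIP was the highest of the 3 RIPs for 12 of 24 and 10 of 20 of them, near the 46.3% of all genes. Other lists ran differently. Cytosolic ribosomal proteins were at 3.23% in YTHDF1 RIP and 3.88% in YTHDF2 RIP, and CREBBP, EP300 and nuclear receptor coregulators at 3.97% in YTHDF1 RIP and 4.13% in YTHDF2 RIP.

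RNA recovery, which has 3 libraries per group and could be tested, was higher in genes with more sites. Over all 31849 genes tested, 6569 were higher in YTHDF1 RIP (20.6%) and 9186 lower (28.8%) at an adjusted p under 0.05 of edgeR's quasi-likelihood test. Of the 7783 edited genes tested, 3394 were higher (43.6%) and 2262 lower (29.1%). The share called higher was 12.4% of genes with 1 site, 22.6% with 2 to 5, 48.6% with 6 to 19 and 86.6% with 20 or more, and the share called lower 58.9, 45.4, 16.4 and 1.98% in the same order. Median log2 fold changes were -0.70, -0.32, 0.36 and 1.18, beside -0.28 over all genes tested. Among well-expressed genes (mean log2 CPM of at least 4), 42.3% of edited genes were higher, against 32.6% of all such genes, and 30.9% lower, against 42.6%.

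These directions rest on TMM scaling, which assumes that most genes do not differ. The alternative below assumes instead that mitochondrially encoded mRNAs do not differ as a sum. After TMM scaling, the 13 of them had a median log2 fold change of 0.88, with 5 called higher and 0 lower. Scaled to mitochondrially encoded mRNAs, the median over all genes was -1.43 in place of -0.28, edited genes called higher were 233 and lower 3588, and the class medians were -1.80, -1.42, -0.72 and 0.11. The order of the classes stayed, and the sign for 6 to 19 sites turned. Genes with more sites were also better covered: the median RNA level was 20.9, 30.3, 54.6 and 133 CPM in YTHDF1 RIP and 33.4, 36.6, 43.2 and 62.0 CPM in input over the 4 classes, and the median exon length 4903, 5230, 5739 and 6975 bases. A site is easier to find in a transcript with more reads, and the part of coverage in the site number was not tested. In RIP samples, more molecules of a transcript recovered and less of the others cannot be told apart.

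**Figure D5:**
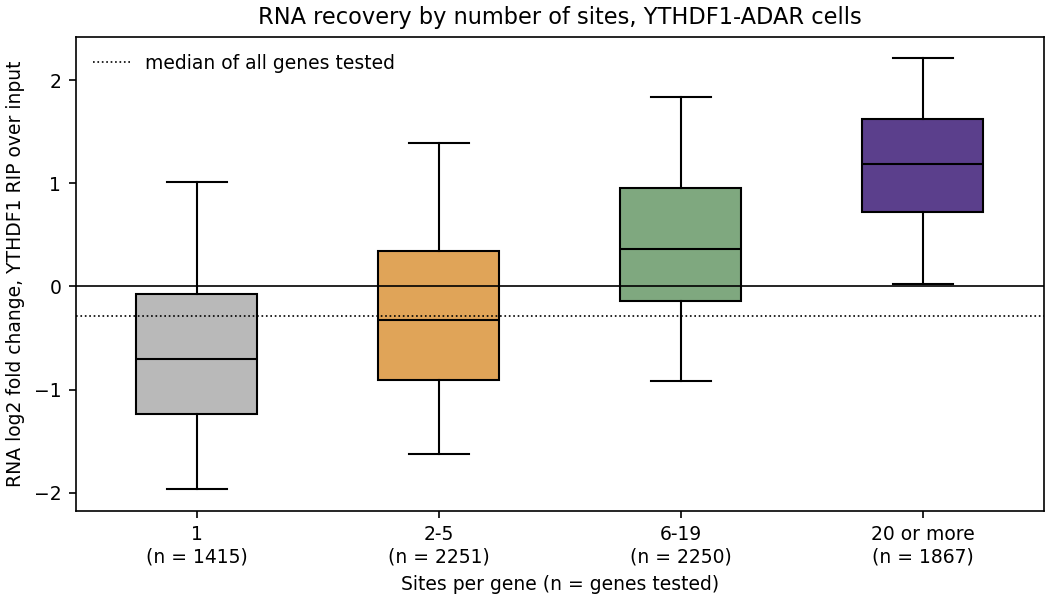
RNA log2 fold change, YTHDF1 RIP over input, after TMM scaling, for genes grouped by number of sites. Boxes span the interquartile range over genes and whiskers the 5th to 95th percentiles, and the dotted line is the median of all genes tested, -0.28. Medians lie at -0.70, -0.32, 0.36 and 1.18, so genes with 1 site sit mostly below 0 and genes with 20 or more mostly above it.

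Across the 7783 genes Spearman's rank correlation of site number with RNA fold change was 0.63, that of sites per kilobase of exon 0.60, and over 7788 genes that of site number with exon length was 0.22. These are descriptions over genes that share libraries. The input editing level also went with RNA recovery (rank correlation 0.43), and so, weakly, did the difference in level (0.19). The editing odds ratio ran slightly the other way, at -0.10 over 7217 genes and -0.30 within genes of 20 or more sites. Among genes of 20 or more sites, the transcripts recovered most thus had smaller odds ratios.

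Split by the RNA call, editing was at 4.90% in YTHDF1 RIP and 3.47% in input for the 3394 genes whose RNA was higher. It was at 3.21% in YTHDF1 RIP and 2.06% in input for the 2127 genes with no call, and at 1.98% in YTHDF1 RIP and 1.30% in input for the 2262 whose RNA was lower. The share of genes with a higher editing level in YTHDF1 RIP was 92.4, 81.8 and 68.3% in the same order, while the median odds ratio was 1.37, 1.495 and 1.56. Within genes of 20 or more sites, split into 4 equal groups by RNA fold change, the median odds ratio was 1.44 in the lowest group and 1.24 in the highest, and the number at an odds ratio of at least 2 was 68 and 3. Their input level was 2.56% in the lowest group and 4.10% in the highest.

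By function, the 268 ZNF genes had RNA called higher for 226 and lower for 12, and the 86 SOX, KLF and homeobox factors for 65 and 2 (24 higher and 24 lower, and 3 higher and 10 lower, under mitochondrial scaling). Beside these stand 20.6% higher and 28.8% lower over all genes tested, and 43.6% higher and 29.1% lower over the edited genes tested. In ribosomal protein genes RNA was lower for 21 of 26 and higher for 1, and in oxidative phosphorylation genes lower for 21 of 24 and higher for none, beside the same shares. Both lists have few sites per gene, and of all edited genes with 1 site 58.9% were lower and with 2 to 5 sites 45.4%. Editing was higher for 19 and 20 of them, near or below the 82.5% over all genes. Lower RNA in these lists held under each scaling, with 24 of 26 and 24 of 24 lower under mitochondrial scaling. In replication-dependent histones 14 of 24 tested had lower RNA. H4C14, a histone H4 gene, was edited at 3.37% in YTHDF1 RIP and 1.75% in input, with RNA at 423, 366 and 573 CPM in YTHDF1 RIP and 1021, 1606 and 1529 CPM in input, and near-identical copies make its count uncertain.

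The odds ratio also varied with the level from which it was taken. It was 2.11 for the 1295 genes with an input level above 0 and up to 1%, 1.55 for 1 to 2%, 1.37 for 2 to 5%, 1.31 for 5 to 10%, 1.24 for 10 to 20% and 1.21 for the 74 genes over 20%. The input level is part of the odds ratio, so the fall is in part built in. Among genes with 6 or more sites, the highest input levels were those of CCDC173, ZNF468, MEIS2, THEMIS2 and RPRM. These lay at 18.9 to 24.0% in YTHDF1 RIP and 19.5 to 22.3% in input, with odds ratios of 0.953 to 1.30. MEIS2, a homeobox factor, was at 20.9% in YTHDF1 RIP and 20.7% in input over 10 sites.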

How the data were processed

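RNA was sequenced from 36 libraries in 12 groups of 3. The 6 of YTHDF1 RIP and input in YTHDF1-ADAR cells were compared. No label says that replicates came from different cultures, and p-values measure only the spread between these samples, which may be technical. The genes, classes and lists were chosen with earlier results of these data known.

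Per the submitters' processing notes, the authors used STAR 2.7.7, featureCounts 2.0.1, DESeq2 and GRCh38. The deposited gene table holds read counts of 60675 genes, which per the file headers ignore strand and include multi-mapped and multi-overlapping reads. Exon overlaps are given for only some of the named genes, so a gene without one given may overlap others too. The authors' deposited editing tables give per gene the count of sites, 1 score per arm, the natural log of an odds ratio per RIP and its adjusted p-value. The editing caller, the site rule and the test are not given in the sources used here. The score divided by the site number is an editing fraction: its natural log odds ratio matched the deposited one within 1e-06 for 7232 of 7232 genes. The authors' deposited DESeq2 table (mean signal, log2 fold change, p-value) was used for gene names only; 7788 of 7800 symbols had 1 ID there.

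RNA was tested in edgeR 4.0.16 (R 4.3.3; filterByExpr, TMM, 1 model of 12 groups, quasi-likelihood test, Benjamini-Hochberg over 31849 genes, limit 0.05), tested on simulated data. Same-numbered libraries did not deviate together (correlations 0.12, -0.55 and 0.03). Named genes were those with most sites (5), with the highest and lowest differences per class (5, or 3 under 6 sites), with the highest input level (5), the 2 with most sites per list and a fixed set; others are said to be chosen after their values were seen. A gene that met this rule is not reported here. Alternatives were other scalings, DESeq2 1.42.0, no filter, other samples in the fit, other odds thresholds, levels weighted by sites and genes with an input level above 0. No column of the count table was left out (0 not used).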

Additional observations from a re-analysis of the deposited data

How the results depend on the processing

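Editing rests on 1 pooled value per arm, with unknown coverage, so no library could be left out of it. Averaging levels weighted by sites in place of taking medians gave a difference of 1.27 percentage points over all genes, and 1.25, 1.67, 1.64 and 1.14 in the classes of 1, 2 to 5, 6 to 19 and 20 or more sites. For interferon-stimulated genes it gave 1.47, where the median was -0.04; a weighted mean follows the genes with most sites. With only genes whose input level was above 0, genes of 1 site differed by 0.231 points and 54.8% were higher. Genes at 0 in input can only be higher or equal. The 201 genes of 1 site at 0 in YTHDF1 RIP only, which can only be lower, were kept, so this share is one-sided too. At an odds ratio of 1.5 there were 3214 higher and 430 lower genes, and at 3 there were 711 and 118. By class at 1.5, higher were 1160 (2 to 5), 1069 (6 to 19) and 505 (20 or more), and lower 189 (1), 210 (2 to 5) and 30 (6 to 19). At 3, higher were 212, 381, 100 and 18 in the 4 classes, and lower 60, 56 and 2 in the first 3.

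For RNA, scaling to mitochondrial mRNAs left 233 edited genes higher and 3588 lower, and 375 and 15150 of all genes. Fitting only the 6 libraries left 6106 of all genes lower. Under DESeq2 size factors edited genes were 3804 higher and 1942 lower, and under DESeq2 itself 3834 and 1973. Leaving out 1 library at a time gave 3125 to 3455 higher and 1825 to 2318 lower. The replicate block, for numbers that do not pair the libraries, gave 3412 higher and 2287 lower against 3394 and 2262. Mitochondrial scaling turned the sign of the RNA log2 change of ADAR (-0.023), ANKRD17 (-0.69), APOL2 (-0.67), BCL2L13 (-0.082), BLCAP (-0.52), BORCS8 (-0.45), C3orf62 (-0.64), CHRFAM7A (-0.41), COX19 (-0.11), DDX6 (-0.41), DGCR8 (-1.01), DNAJC5 (-0.038), EIF2AK4 (-0.27), EIF4G1 (-0.14), GPR155 (-1.05), HECTD4 (-0.52), HSPA12A (-0.27), KMT2C (-0.029), LIPT1 (-0.26), MED13 (-0.036), MEIS2 (-0.11), METAP1D (-0.079), NCAPH2 (-0.30), NRP2 (-0.32), P2RY11 (-0.72), POLE (-0.999), PUSL1 (-0.30), RPL7L1 (-0.74), SLC35G2 (-0.14), TK2 (-0.56), TMED3 (-0.16), TP73 (-0.078), UBE3B (-0.22), ZNF276 (-0.13) and ZYG11A (-0.75). Mitochondrial scaling also left 39 named genes weaker without a sign turn, among them EPPK1 (1.23), SON (0.69) and ARHGEF4 (0.31), while 11 were stronger and 42 stayed the same. Under the other alternatives, sign turns among genes named here were limited to changes that were called neither there nor under TMM with all libraries, such as METTL14 and ZNF621. The cause of these shifts was not tested.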

Other observations

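The genes below were chosen after their values were seen. A level above 50% in either arm was listed for 10 genes, 8 of them with 1 site. IMPDH2, which makes guanine nucleotides, was highest, at 87.1% in YTHDF1 RIP and 70.7% in input. TRERF1, a transcriptional regulator, was at 65.5% in YTHDF1 RIP and 53.5% in input, NOL10, a nucleolar protein, at 63.6% in YTHDF1 RIP and 45.8% in input, and SUMF1, which activates sulfatases, at 61.8% in YTHDF1 RIP and 46.3% in input. The others were C3orf62, H4C4, SLC35G2, TK2, USP5 and ZNF799. A high level was thus shared by both arms for these genes, with C3orf62 apart, and H4C4 was lower in YTHDF1 RIP. Positions of the sites are not in the table, so a change in the genome of the cells was not tested.

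The 29 genes without a value in every arm had 1 to 13 sites. For 12 of them no YTHDF1 RIP value was given, and for 10 no input value. ZNF416, with 13 sites, was at 16.5% in YTHDF1 RIP, 13.9% in YTHDF2 RIP and 8.97% in YTHDF3 RIP with no input value. A4GALT, which makes the P1 and Pk glycolipid antigens, was at 17.8% in YTHDF1 RIP, 16.4% in YTHDF2 RIP and 15.3% in YTHDF3 RIP, likewise with none. Of 7 genes with both YTHDF1 RIP and input values, ELFN1 was at 28.2% in YTHDF1 RIP and listed at 0 in input, and CAMK2N2 at 10.1% in YTHDF1 RIP and 29.0% in input. TUG1, a transcript known as a long noncoding RNA that the authors' table lists as protein coding, was the one member from the list of nuclear noncoding RNAs, with 205 sites at 3.61% in YTHDF1 RIP and 2.11% in input.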
